A study of Mus musculus with 6 samples.

Results

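Hypoxia-inducible factor (HIF) and its regulators were followed in bone marrow (BM) neutrophils of naive and tumor-bearing mice through 10 genes chosen by name. They were the HIF subunit genes Hif1a and Arnt, the prolyl hydroxylase genes Egln1, Egln2 and Egln3, the ubiquitin ligase gene Vhl, and 4 targets of hypoxia outside glycolysis, Vegfa, Bnip3, Bnip3l and Ddit4. All 10 were found among the 38887 gene identifiers of the count table, and all 10 were among the 12259 genes with enough counts to be tested. Earlier results of these data were known when the 10 were chosen, so the numbers of them called below are descriptive.

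The data came from RNA-seq of BM cells selected with Ly6G beads, with 2 libraries in each of 3 groups. The groups were naive mice, which carried no tumor, and mice taken 1 week or 3 weeks after LL2 cells were given, called one-week LL2 and three-week LL2 mice below. LL2 is a mouse Lewis lung carcinoma line that here carried luciferase, and the study treats its intravenous injection as an orthotopic lung cancer model. The wild-type mice bought for the study were C57BL/6N CD45.1+ of both sexes and female C57BL/6 CD45.2+, at an age of 6 to 8 weeks. The methods do not say which of them, or which sex, gave the RNA. The labels name no altered gene in any group, and all cells came through the same bead selection.

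HIF is a transcription factor made of an oxygen-regulated alpha subunit and the constant beta subunit ARNT. In the presence of oxygen, prolyl hydroxylases mark the alpha subunit, VHL binds the marked protein, and the ubiquitin ligase around VHL sends it for degradation. When oxygen is low the alpha subunit escapes, pairs with ARNT and binds DNA at hypoxia response elements, whose core reads ACGTG or GCGTG. Neutrophils rely on glycolysis and work in poorly oxygenated tissue, and HIF-1 alpha is known for prolonging their survival and supporting their bactericidal activity there. Much of this control acts on the protein, which RNA-seq does not measure.

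The libraries held from 11994158 to 14127919 counts, so that 3 counts, taken here as the smallest detected number, were worth from 0.2 to 0.246 CPM. CPM here are counts relative to the library total after scaling between libraries by the TMM method, and these limits cover counting error only. The 2 libraries of a group differed by more than counting noise, with chi-square values of 8.34 to 11.4 per degree of freedom. Of the neutrophil markers, all 12 had counts and their summed level was between 285149.8 and 349012.6 CPM over the 6 libraries. S100a8 and S100a9, which encode the abundant neutrophil calprotectin, led them. Ly6g, the gene of the selection marker, had only 6 to 32 counts per library. Groups were compared with edgeR (quasi-likelihood F test) over all tested genes, and a gene was called changed at a Benjamini-Hochberg adjusted p under 0.05. Fold changes are given on the log2 scale with their standard error (SE). The labels name mice as replicates without more detail, so p-values measure the spread between these libraries.

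The start regions of the pathway genes were examined first for the HIF core. RefSeq gave the 250 bases upstream of a transcript start for 9 of the 10 genes, in 11 windows (GRCm38.p6). The letters ACGTG and GCGTG were searched on both strands. At least 1 core was present in 9 of the 11 windows, and 8 of the 9 genes had a window with one. Of all 32851 mouse windows of that length, 38.6% held at least 1 of the 2 cores, with ACGTG in 16.6% and GCGTG in 28.2%. CACGTG reads the same on both strands, counts as ACGTG on each of them, and is also the E-box bound by other factors. A match is a description of the letters and not a binding site.

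Here 5 windows are printed 5′ to 3′ on the gene's strand, with the cores of either strand in capitals and with bases of annotated exons left out. Hif1a and Egln3 are shown as an alpha subunit gene and the hydroxylase gene with the largest change at 3 weeks, Bnip3 for the window with most cores, and Ddit4 as a target called higher at 3 weeks. Vhl is the gene without a core in its window. The Hif1a window lies inside the longer GENCODE gene model, at the start of a RefSeq transcript that begins at 73907867 of chromosome 12.
Hif1a, chr12:73907617-73907866, plus strand: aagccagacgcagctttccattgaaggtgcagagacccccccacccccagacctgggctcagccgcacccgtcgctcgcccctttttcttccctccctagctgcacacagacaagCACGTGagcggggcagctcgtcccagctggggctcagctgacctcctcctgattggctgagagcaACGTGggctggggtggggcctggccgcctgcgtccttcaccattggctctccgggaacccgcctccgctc
Egln3, chr12:54203875-54204124, minus strand: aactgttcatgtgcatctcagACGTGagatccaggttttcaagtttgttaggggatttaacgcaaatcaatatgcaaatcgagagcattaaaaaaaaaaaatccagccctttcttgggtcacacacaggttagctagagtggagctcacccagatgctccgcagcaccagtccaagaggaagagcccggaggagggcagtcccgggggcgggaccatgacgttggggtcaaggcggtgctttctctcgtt
Bnip3, chr7:138909520-138909756, minus strand: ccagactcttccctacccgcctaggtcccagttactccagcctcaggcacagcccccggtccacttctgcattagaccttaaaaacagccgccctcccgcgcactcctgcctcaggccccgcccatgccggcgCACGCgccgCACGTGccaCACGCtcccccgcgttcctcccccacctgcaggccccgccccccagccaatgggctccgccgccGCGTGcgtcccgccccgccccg
Ddit4, chr10:59951835-59952020, minus strand: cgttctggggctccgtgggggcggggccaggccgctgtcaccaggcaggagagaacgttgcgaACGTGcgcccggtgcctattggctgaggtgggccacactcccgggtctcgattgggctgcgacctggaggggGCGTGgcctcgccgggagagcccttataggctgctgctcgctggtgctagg
Vhl, chr6:113623744-113623958, plus strand: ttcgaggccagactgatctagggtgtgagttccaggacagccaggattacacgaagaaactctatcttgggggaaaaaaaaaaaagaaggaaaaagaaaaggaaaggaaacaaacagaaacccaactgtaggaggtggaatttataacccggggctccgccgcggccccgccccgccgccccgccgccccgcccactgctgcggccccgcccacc

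Counting back from the transcript start, with the first base of each core on the gene's strand given, the Hif1a window held 3 cores. These lay at -135, -134 and -70, those at -135 and -134 being the 2 strands of a CACGTG. The single core of Egln3 lay at -229. Bnip3 held 5 cores, at -117, -108, -107, -99 and -35, those at -108 and -107 being the 2 strands of a CACGTG. Ddit4 held ACGTG at -187 and GCGTG at -115. Arnt had 1 core and Egln1 had 2. Egln2 had 1 at its downstream start and 4 at its upstream start. Vegfa had 2 at an internal start and none at the start nearest the beginning of its gene.

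**Figure D1:**
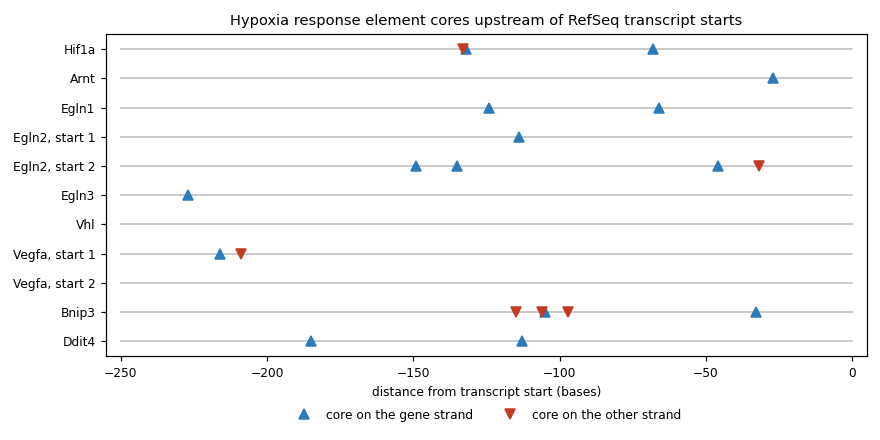
Position of each ACGTG or GCGTG core in the 250 bases upstream of RefSeq transcript starts, one row per window (x axis: bases from the start, marker at the centre of the core, upward blue on the gene's strand, downward red on the other). Cores were present in 9 of 11 windows and absent from Vhl and from the Vegfa start nearest the beginning of the gene.

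Levels of the 10 genes were compared per length, as CPM per kb of exon. In naive mice, Bnip3l had the highest level, 19.9 ± 0.154 CPM per kb (SD, n = 2), followed by Egln2 with 16.6 ± 1.52 and Ddit4 with 16 ± 3.08, whose libraries overlapped. The other 7 genes were between 3.86 and 6.25 CPM per kb on average, Vhl at the top and Vegfa at the bottom. Within them the libraries of Vhl, Bnip3, Arnt, Hif1a and Egln3 overlapped in order, and Egln1, with a mean of 4.29, overlapped Egln3. In three-week LL2 mice, Egln2 led with 24.2 ± 1.34 CPM per kb, Ddit4 had 22.7 ± 2.81 and Bnip3l 21.7 ± 0.803, and each overlapped its neighbour. Egln3, Bnip3, Arnt, Hif1a and Vhl followed with means from 7.34 to 10.7 and overlapping neighbours. Egln1, at 4.74 ± 0.382, and Vegfa, at 2.99 ± 0.0584, then stood apart from each other. Hif1a was the ninth of 10 in one-week LL2 mice, at 3.85 ± 0.45 CPM per kb, where its libraries did not overlap those of Egln1 above it but overlapped those of Vegfa below it.

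**Figure D2:**
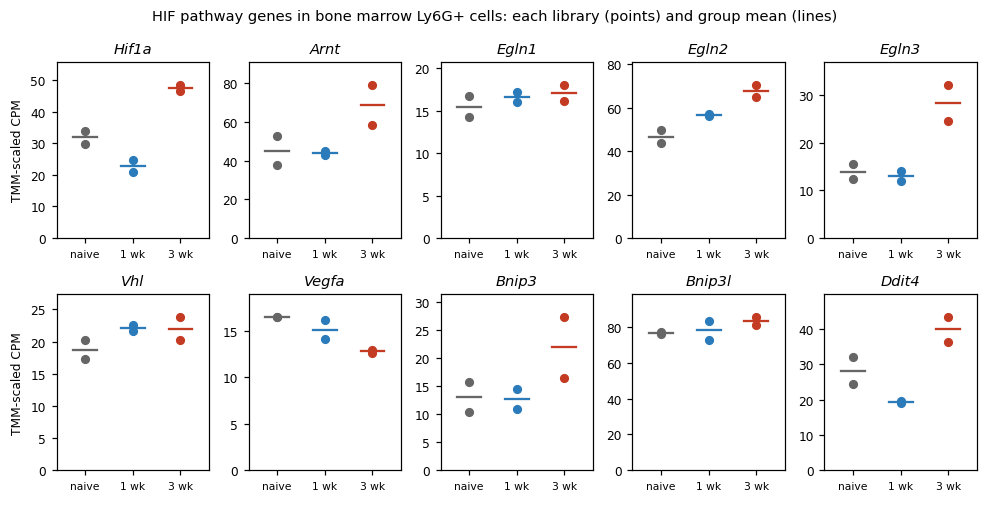
TMM-scaled CPM (y axis, from 0) of the 10 genes in each library of naive, one-week LL2 (1 wk) and three-week LL2 (3 wk) mice, with points for libraries and lines for means of 2. Hif1a, Arnt, Egln2, Egln3, Bnip3 and Ddit4 were highest at 3 weeks, with both libraries above both naive libraries, and Hif1a and Ddit4 were lowest at 1 week.

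The comparison of one-week LL2 with naive mice asked what had changed while the tumors were small. None of the 10 genes passed the test, against 7.99% of all tested genes, 4.23% higher and 3.76% lower. Hif1a and Ddit4 were the closest, both with lower values at 1 week. At an unadjusted p under 0.05 there were 3 of the 10, Hif1a, Ddit4 and Egln2, and 2849 of all 12259, and DESeq2 also called 0 of the 10. Naive and one-week libraries were fully separated for 5 of the 10, against 53.2% of all tested genes. The median change of the 10 was -0.04 on the log2 scale and that of all genes 0.01.

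Hif1a (ENSMUSG00000021109, chr12:73901375-73947530, plus strand of GRCm38) encodes the alpha subunit of HIF-1. It had 34.0 and 29.6 CPM in naive mice, and 24.6 and 20.8 CPM in one-week LL2 mice. Both one-week libraries were below both naive libraries. The difference was -0.49 (SE 0.141, adjusted p = 0.0526 in edgeR), or 1.4-fold lower, which missed the threshold. Ddit4 (ENSMUSG00000020108, chr10:59949669-59951834, minus strand) encodes REDD1, an inhibitor of mTORC1 induced by hypoxia and other stress. Its levels were 32.0 and 24.3 CPM in naive and 19.0 and 19.6 CPM in one-week LL2 mice. The groups did not overlap, and the difference of -0.55 (SE 0.162, adjusted p = 0.0562 in edgeR) also missed the threshold. Because the samples were bulk RNA, fewer cells of a kind and less RNA per cell cannot be told apart, here and below. Both genes sat near the threshold in this comparison. Hif1a was called in 5 and Ddit4 in 7 of 13 alternative settings, with adjusted p-values from 0.0329 to 0.314 and from 0.0157 to 0.384.

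The other 8 genes differed by between -0.12 and 0.29 at 1 week. Egln2, the hydroxylase also called PHD1, had 43.6 and 49.6 CPM in naive mice and 57.3 and 56.4 CPM in one-week LL2 mice, without overlap, a difference of 0.29 (SE 0.124, adjusted p = 0.182 in edgeR). For Egln3 the 95% interval of the difference was -0.50 to 0.32 and for Bnip3 -0.59 to 0.51. Changes within these bounds remained compatible with the values.

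The comparison of three-week LL2 with naive mice addressed the advanced tumor stage. Of the 10 genes, 6 were called higher and 0 lower, where 12.0% of all tested genes were called higher, 9.42% lower and 21.4% in either direction. The 6 were both subunit genes, Hif1a and Arnt, the hydroxylase genes Egln2 and Egln3, and the targets Bnip3 and Ddit4. Egln1, Vhl, Vegfa and Bnip3l were not called. DESeq2 called 4 of the 10, without Bnip3 (adjusted p = 0.0741 in DESeq2) and Ddit4 (adjusted p = 0.0813 in DESeq2). Naive and three-week libraries were fully separated for 9 of the 10, against 59.6% of all tested genes. The median change was 0.52 for the 10 and 0.03 for all genes.

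Among the subunits, Hif1a had 48.4 and 46.5 CPM in three-week LL2 mice, against 34.0 and 29.6 in naive mice. Both tumor libraries were above both naive ones, and Hif1a rose 1.49-fold (0.58, SE 0.137, adjusted p = 0.00941 in edgeR). Arnt (ENSMUSG00000015522, chr3:95434388-95497240, plus strand) encodes the beta subunit, which also serves the dioxin receptor. It had 79.1 and 58.6 CPM at 3 weeks and 37.8 and 52.5 CPM in naive mice. The groups did not overlap, although the lower tumor library was close to the higher naive one, and the rise was 1.53-fold (0.61, SE 0.171, adjusted p = 0.0225 in edgeR).

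The 3 hydroxylase genes moved unequally. Egln3 (ENSMUSG00000035105, chr12:54178981-54203860, minus strand) encodes PHD3, a hydroxylase that is itself a HIF target and is known for prolonging neutrophil survival in hypoxia. It rose from 15.5 and 12.4 CPM in naive mice to 24.6 and 32.2 CPM in three-week LL2 mice. The groups did not overlap, and this was the largest change of the 10 genes, 2.04-fold (1.03, SE 0.183, adjusted p = 0.00147 in edgeR). Egln2 (ENSMUSG00000058709, chr7:27158658-27166802, minus strand) had 70.5 and 65.2 CPM at 3 weeks, against 43.6 and 49.6 in naive mice. Its 2 tumor libraries were the highest of the 6, and the rise was 1.46-fold (0.54, SE 0.124, adjusted p = 0.00742 in edgeR). Egln1 (ENSMUSG00000031987, chr8:124908587-124949324, minus strand) encodes PHD2, the main oxygen sensor of most cells. Its 6 libraries lay between 14.2 and 18.0 CPM with the groups overlapping, and the three-week difference of 0.14 had a 95% interval from -0.21 to 0.49 (adjusted p = 0.591 in edgeR).

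Vhl (ENSMUSG00000033933, chr6:113623959-113631633, plus strand) encodes the part of the ligase that recognizes hydroxylated HIF alpha. It had 17.3 and 20.2 CPM in naive mice, 22.5 and 21.7 at 1 week and 20.2 and 23.8 at 3 weeks. The three-week and naive libraries were separated by less than the spread within either group, and the difference was 0.23, with a 95% interval from -0.10 to 0.57 (adjusted p = 0.322 in edgeR).

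The 4 targets did not share a direction. Bnip3 (ENSMUSG00000078566, chr7:138890836-138909519, minus strand) encodes a mitochondrial receptor that directs mitochondria to autophagy. It had 16.5 and 27.3 CPM at 3 weeks and 10.4 and 15.7 CPM in naive mice. The 2 groups were barely apart, and the rise of 1.68-fold (0.75, SE 0.25, adjusted p = 0.0491 in edgeR) was just past the threshold. Ddit4 had 43.4 and 36.4 CPM at 3 weeks against 32.0 and 24.3 in naive mice. Its groups did not overlap and the rise was 1.42-fold (0.50, SE 0.157, adjusted p = 0.037 in edgeR). Vegfa (ENSMUSG00000023951, chr17:46016993-46032369, minus strand) encodes the main growth factor of blood vessels and is a standard hypoxia target. It had 16.5 CPM in both naive libraries and 12.6 and 13 CPM at 3 weeks. Both three-week libraries were the lowest of the 6. The difference of -0.37 (SE 0.161, adjusted p = 0.125 in edgeR) did not pass. Bnip3l (ENSMUSG00000022051, chr14:66985239-67008877, minus strand) encodes NIX, a relative of BNIP3 that clears mitochondria during red cell maturation. Its values of 81.4 and 85.7 CPM at 3 weeks and 76.5 and 77.4 CPM in naive mice did not overlap, and the difference of 0.12 had a 95% interval from -0.14 to 0.38 (adjusted p = 0.533 in edgeR).

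Egln3 alone was called in all 13 alternative settings in this comparison, Egln2 in 12, Hif1a in 11, Arnt in 10, Ddit4 in 6 and Bnip3 in 4. Without naive replicate 1 the calls of Arnt (0.36, adjusted p = 0.254 in edgeR), Egln2 (0.42, adjusted p = 0.0931) and Bnip3 (0.45, adjusted p = 0.376) were lost, and without naive replicate 2 those of Hif1a (0.49, adjusted p = 0.0744) and Ddit4 (0.33, adjusted p = 0.235). Without three-week replicate 1, Arnt (0.39, adjusted p = 0.19 in edgeR) and Ddit4 (0.38, adjusted p = 0.199) were lost, and without three-week replicate 2, Bnip3 (0.34, adjusted p = 0.427) was lost. Leaving out one-week replicate 1 or 2, which changes only the shared spread, the scaling and the genes tested, moved Bnip3 to an adjusted p of 0.0608 or 0.0545 and Ddit4 to 0.0713 or 0.0654. Scaled by library size only, Vegfa was called lower and only Egln2 and Egln3 higher, with the median of all genes moved by -0.15.

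**Figure D3:**
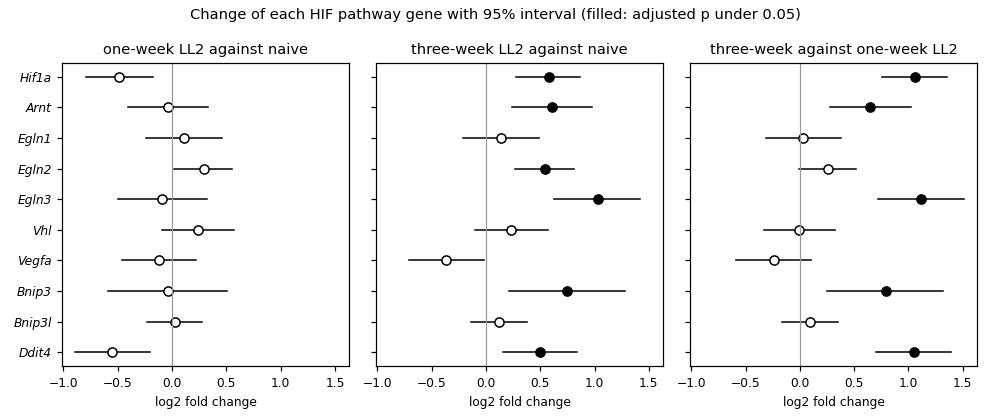
Log2 fold change (x axis) of each of the 10 genes in the 3 comparisons, with 95% intervals of the edgeR fit and filled points for adjusted p under 0.05. No point is filled at 1 week, 6 are filled for three-week against naive mice and 5 for three-week against one-week LL2 mice, all to the right of 0.

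At 3 weeks against 1 week, 5 of the 10 genes were called higher and 0 lower, where 12.9% of all tested genes were called higher, 9.57% lower and 22.5% in either direction. This comparison tests whether the change from naive mice differed between the 2 times, and it shares its libraries with the other comparisons. One-week and three-week libraries were fully separated for 7 of the 10, against 63.8% of all tested genes, and the median change was 0.45 for the 10 and -0.02 for all genes. Hif1a, at 48.4 and 46.5 CPM against 24.6 and 20.8, was 2.09-fold higher (1.06, SE 0.139, adjusted p = 1.48e-04 in edgeR). Its one-week, naive and three-week libraries formed 3 ranges that did not overlap, in that order.

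Egln3 had 14.2 and 11.9 CPM at 1 week and 24.6 and 32.2 at 3 weeks, without overlap. It was 2.17-fold higher at 3 weeks (1.12, SE 0.182, adjusted p = 7.40e-04 in edgeR). Ddit4, at 43.4 and 36.4 against 19.0 and 19.6 CPM, was 2.07-fold higher (1.05, SE 0.16, adjusted p = 4.49e-04 in edgeR), and like Hif1a its 3 groups did not overlap, with the one-week libraries lowest. Hif1a, Egln3 and Ddit4 were called here under each of the 13 alternative settings. Arnt had 43.1 and 44.8 CPM at 1 week, both between the 2 naive libraries, and was 1.57-fold higher at 3 weeks (0.65, SE 0.171, adjusted p = 0.0155 in edgeR). Bnip3, with 14.4 and 10.9 CPM at 1 week, was 1.73-fold higher at 3 weeks (0.79, SE 0.248, adjusted p = 0.0359 in edgeR). Egln2 rose in steps that each separated the groups, but its difference between 3 weeks and 1 week, 0.26 (SE 0.123), had an adjusted p of 0.156 in edgeR. Egln1, Vhl, Vegfa and Bnip3l differed by between -0.24 and 0.09 and were not called.

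The calls of Arnt and Bnip3 in this comparison depended on single libraries. Arnt was lost without one-week replicate 1 (0.59, adjusted p = 0.105 in edgeR), one-week replicate 2 (0.65, adjusted p = 0.0814) or three-week replicate 1 (0.43, adjusted p = 0.139), and Bnip3 without one-week replicate 1 (0.98, adjusted p = 0.056), one-week replicate 2 (0.57, adjusted p = 0.245) or three-week replicate 2 (0.39, adjusted p = 0.329).

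Reads of some of these genes could not be assigned to them alone. Bnip3l shares 16.9% of its 75-base stretches with the processed pseudogene Bnip3l-ps (chr12:18216542-18217673, plus strand), to which more counts were given than to the gene itself in every library, from 1.31 to 1.89 times as many. Bnip3l-ps had 136.0 and 136.1 CPM in naive mice, 109.1 and 98.3 at 1 week and 121.1 and 162.3 at 3 weeks. Its one-week libraries were the lowest of the 6, and it was higher at 3 weeks than at 1 week (0.45, SE 0.139, adjusted p = 0.0336 in edgeR). Summed over both, Bnip3l had 212.6 and 213.4 CPM in naive mice, 192.5 and 171.4 at 1 week and 202.4 and 248.0 at 3 weeks. The sum was not called in any comparison, and its difference at 1 week was -0.23 (adjusted p = 0.304 in edgeR), opposite in sign to that of Bnip3l alone. The level and the changes of Bnip3l are therefore uncertain. Bnip3 shares 34.4% of its stretches with other annotated genes, and Gm16439, the copy among them in the count table, had 0 counts in all 6 libraries. For Hif1a the share was 4.46%, and its antisense neighbour Gm15283, with 330 bases of shared exon, had 12 to 31 counts against 279 to 624 for Hif1a. The strand setting of the counting is not given in the sources used here. The other 7 genes shared no such stretch.

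**Figure D4:**
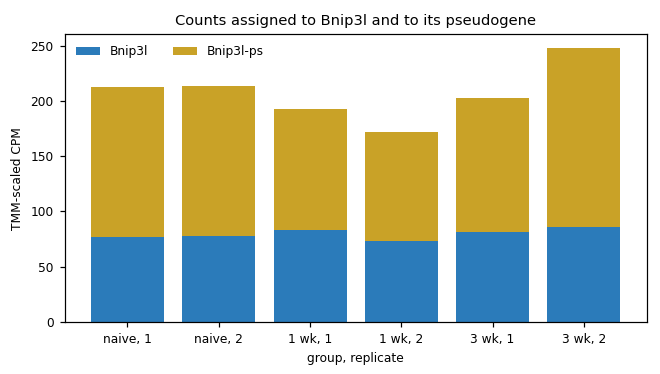
Stacked TMM-scaled CPM (y axis) of Bnip3l (blue) and its pseudogene Bnip3l-ps (yellow) in each of the 6 libraries. The pseudogene part exceeded the gene part in every library, and the sums ran from 171.4 to 248.0 CPM.

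The rest of the oxygen-sensing pathway was described through lists chosen with earlier results of these data known. Their counts stand beside the shares of all tested genes called higher and lower. These were 4.23% and 3.76% at 1 week, 12.0% and 9.42% at 3 weeks, and 12.9% and 9.57% between the 2 times. Of 11 other HIF subunits and partners, 5 had enough counts to be tested. The alternative alpha subunits were nearly absent, Epas1 (HIF-2 alpha) with 0 to 9 counts per library and Hif3a with 0 to 2, and the second beta subunit Arnt2 had 0 to 4. At 1 week, 2 of the 5 were called lower and 0 higher. They were the coactivators through which HIF opens chromatin, Ep300 at 43.5 and 45.9 CPM against 86.2 and 72.0 in naive mice (-0.82, SE 0.127, adjusted p = 0.0025 in edgeR) and Crebbp (-0.53, SE 0.14, adjusted p = 0.0349 in edgeR), and the count of 2 went to 1 without naive replicate 1 or either one-week library. At 3 weeks none of the 5 was called against naive mice, and Ep300 was higher than at 1 week (0.55, SE 0.127, adjusted p = 0.00752 in edgeR). Hif1an encodes FIH, the asparagine hydroxylase that blocks coactivator binding. It had 40.0 and 41.2 CPM in naive mice, 30.0 and 31.8 at 1 week and 31.7 and 33.5 at 3 weeks, below naive at both times but with adjusted p-values of 0.0743 and 0.0931 in edgeR. The median of the 5 was -0.39 at 1 week, -0.27 at 3 weeks and 0.08 between the 2 times.

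The VHL ubiquitin ligase and other factors of HIF stability made up 15 tested genes. None was called at 1 week (median -0.01), and at 3 weeks 4 were higher and 1 lower than in naive mice (median 0.14). The shares of all tested genes at 3 weeks were 12.0% and 9.42%. Higher were 3 parts of the ligase, Elob (0.44, SE 0.135, adjusted p = 0.0351 in edgeR), Eloc (0.58, SE 0.153, adjusted p = 0.0161) and Rbx1 (0.48, SE 0.126, adjusted p = 0.017). The scaffold Cul2 had 5.66 and 7.92 CPM at 3 weeks and 3.96 and 4.26 in naive mice, without passing the test (0.73, adjusted p = 0.0652 in edgeR). The fourth was Rack1, a ribosomal protein that can also bring HIF-1 alpha to degradation (0.44, SE 0.123, adjusted p = 0.0212 in edgeR). Siah2, whose ligase degrades prolyl hydroxylases under hypoxia, fell from 5.94 and 7.04 CPM to 1.78 and 3.31 CPM (-1.35, SE 0.313, adjusted p = 0.00837 in edgeR). Between the 2 times, 1 was higher, Rack1, and 1 lower, Siah2 (median 0.10).

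Other targets of hypoxia outside glycolysis moved in both directions. Of 24 tested genes of 32, 8 were called higher and 3 lower at 3 weeks against naive mice, with a median of 0.32. The shares of all tested genes were 12.0% and 9.42%. Nos2, with 0 counts in every naive and one-week library, is among the 8, and the median does not depend on the size given to its change. At 1 week 1 was higher and 1 lower (median -0.14), and between the 2 times 8 were higher and 3 lower (median 0.44). Fam162a, a mitochondrial protein gene, had 3.32 and 4.26 CPM in naive mice, 6.61 and 6.49 at 1 week and 16.3 and 17.1 at 3 weeks. Its 3 groups did not overlap, and it was called higher at both times (0.79, SE 0.217, adjusted p = 0.0417, and 2.14, SE 0.206, adjusted p = 1.42e-05 in edgeR). Plin2, which coats lipid droplets, was the gene called lower at 1 week (-0.54, adjusted p = 0.0382 in edgeR), and it was called higher than naive at 3 weeks (0.48, adjusted p = 0.0307). The one-week count of 2, Fam162a and Plin2, went to 0 without any one of the naive or one-week libraries. Ndrg1, a stress-response gene, and Cxcr4, the receptor that holds neutrophils in the marrow, are listed as hypoxia targets but fell at 3 weeks, by 0.98 (adjusted p = 2.42e-04 in edgeR) and by 1.21 (adjusted p = 2.28e-04) on the log2 scale. The classical target Car9, with 1 to 4 counts per library, was not tested.

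Glycolytic targets, given for comparison, were called higher in 12 and lower in 1 of 19 at 3 weeks against naive mice (median 0.57), and in 13 and 1 between the 2 times (median 0.48). At 1 week the counts were 2 and 1 (median -0.01). Those higher at 1 week were Pgk1 (1.1, SE 0.209, adjusted p = 0.00764 in edgeR) and Eno1 (0.6, SE 0.125, adjusted p = 0.0125). Of all tested genes, 4.23% were higher and 3.76% lower at 1 week, and 12.0% and 9.42% at 3 weeks. Slc2a1, the glucose transporter GLUT1, had 14.6 and 12.1 CPM in naive mice, 12.1 and 14.9 at 1 week and 54.8 and 50.5 at 3 weeks (1.98, SE 0.158, adjusted p = 2.96e-06 in edgeR). Slc16a3, the lactate exporter MCT4, was lower at 1 week (-0.77, SE 0.116, adjusted p = 0.00216 in edgeR) and near naive at 3 weeks (-0.01, adjusted p = 0.964).

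Around Vegfa, 6 of 10 VEGF ligands and receptors were tested, Vegfa itself among them, so its change also enters the medians below. None was called at 1 week (median 0.06), and 1 was lower in three-week LL2 mice than in naive mice (median -0.27) and than in one-week LL2 mice (median -0.32). This was Nrp1, a co-receptor of VEGF, which had 9.0 and 8.69 CPM at 3 weeks and between 24.1 and 30.4 CPM in the other 4 libraries (-1.63, SE 0.175, adjusted p = 3.50e-05 in edgeR against naive). Of all tested genes, 9.42% were lower at 3 weeks than in naive mice and 9.57% lower than at 1 week.

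Around Bnip3 and Bnip3l, 17 of 18 genes of mitophagy and of BNIP3 partners were tested. At 3 weeks 6 were higher and 0 lower than in naive mice (median 0.34), and 9 were higher and 0 lower than at 1 week (median 0.38), while at 1 week 0 were higher and 1 was lower (median 0.01). Of all tested genes, 12.0% were higher at 3 weeks than in naive mice and 12.9% higher than at 1 week. Pink1, the kinase that marks damaged mitochondria, had 20.5 and 16.4 CPM in naive mice, 24.1 and 22.7 at 1 week and 42.4 and 36.8 at 3 weeks (1.1, SE 0.153, adjusted p = 2.54e-04 in edgeR). The mitophagy receptor Fundc1 (0.66, adjusted p = 0.0184 in edgeR) and Bcl2l1, an anti-apoptotic partner of BNIP3 (0.75, adjusted p = 0.00377), rose as well. Ulk1, the kinase that starts autophagy, was the gene called lower at 1 week, with 47.0 and 45.8 CPM against 86.7 and 78.3 in naive mice (-0.83, SE 0.119, adjusted p = 0.00175 in edgeR). At 3 weeks it had 90.8 and 94.6 CPM, above both naive libraries without being called (0.17, adjusted p = 0.343 in edgeR).

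Around Ddit4, 16 of 17 genes of mTORC1 control were tested, of which 3 were higher and 1 lower at 3 weeks against naive mice (median 0.19). Rheb, 1 of the 16, was also counted in the mitophagy list. Of all tested genes, 12.0% were called higher and 9.42% lower. Eif4ebp1, the translation repressor that mTORC1 switches off, had 105.2 and 98.4 CPM at 3 weeks and between 42.0 and 54.0 CPM in the other libraries (1.08, SE 0.137, adjusted p = 1.29e-04 in edgeR). Rheb, the activator of mTORC1 (0.94, adjusted p = 0.00126 in edgeR), and Mtor, the kinase itself (1.08, adjusted p = 0.00145), were the others that rose, and Mlst8, a subunit of the complex, fell (-0.76, adjusted p = 5.87e-04). At 1 week 2 were higher, Mtor (0.75, adjusted p = 0.0331 in edgeR) and the subunit gene Rptor (0.89, adjusted p = 0.0325), and 0 lower (median 0.21), and this count of 2 went to 0 with DESeq2 and without any one of the naive or one-week libraries. Between the 2 times 2 were higher and 1 lower (median 0.07), against 12.9% and 9.57% of all tested genes.

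**Figure D5:**
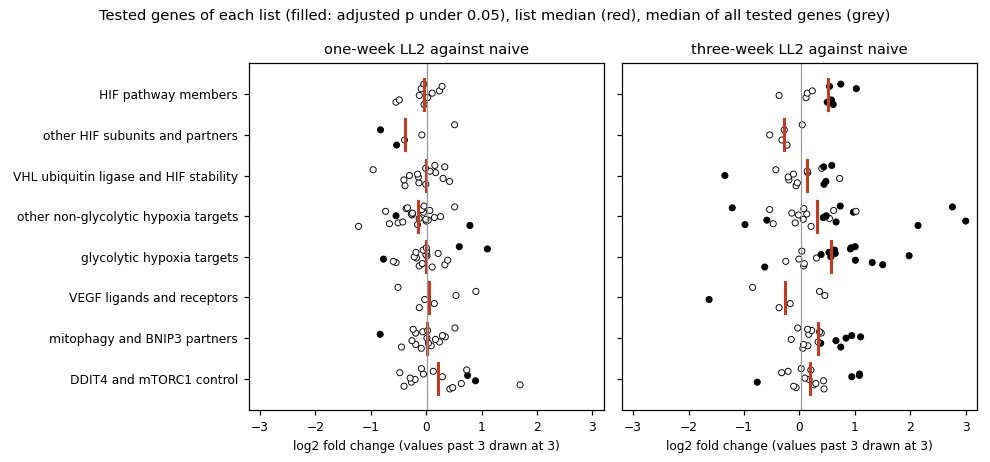
Log2 fold change (x axis) of every tested gene in the 10-gene set and in each of 7 related lists, at 1 week and at 3 weeks against naive mice. Points are filled at an adjusted p under 0.05, red bars are list medians and the grey line is the median of all tested genes. The median of the 10 genes was -0.04 at 1 week and 0.52 at 3 weeks.

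Hif1a had a pattern over the 6 libraries that other genes followed closely. Among the highest Pearson correlations of log2 CPM with it were those of Nfatc1 (0.9947), Washc2 (0.9916), Pak2 (0.9914) and Tet2 (0.9894), and 216 tested genes were over 0.95. These values describe 6 libraries in 3 groups that share their scaling. Nfatc1, a transcription factor gene, had 43.8 and 40.4 CPM in naive mice, 36.6 and 35.2 at 1 week and 49.4 and 48.5 at 3 weeks. Its order of the 6 libraries was that of Hif1a.

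Markers of cell maturity and of other cells also moved with the groups. Of all tested genes, 4.23% were called higher and 3.76% lower at 1 week, and 12.0% and 9.42% at 3 weeks. Between the 2 times the shares were 12.9% and 9.57%. Among neutrophil markers, 1 was higher and 0 lower at 1 week, 2 were higher and 3 lower at 3 weeks, and 5 were higher and 3 lower between the 2 times. Cxcr2, the receptor of mature neutrophils, rose at 3 weeks (0.70, adjusted p = 0.00288 in edgeR) and the granule gene Camp fell (-1.04, adjusted p = 1.73e-04). Early granulocyte precursor markers had 5 higher and 3 lower at 3 weeks, with granule genes such as Mpo (2.30, adjusted p = 2.73e-05 in edgeR) and Prtn3 (3.23, adjusted p = 3.52e-06) higher and the proliferation gene Top2a (-1.33, adjusted p = 1.57e-05) lower. There were 0 higher and 1 lower at 1 week, and 5 and 4 between the 2 times. Their summed level was 1182.7 to 1311.9 CPM in naive, 1180.3 to 1222.9 in one-week and 1217.2 to 1329.2 in three-week LL2 mice.

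All 10 B-lineage markers were lower at 3 weeks than in naive mice, 9 of them also than at 1 week, and 0 of 10 were called at 1 week. Their sum fell from 66.6 to 91.0 CPM in naive and 58.0 to 72.2 in one-week LL2 mice to 14.5 to 23 in three-week LL2 mice. Erythroid markers, of interest because NIX acts in red cells, summed to 1227.1 to 1378.4 CPM in naive mice, 1335.7 to 1536.0 at 1 week and 582.9 to 1365.4 at 3 weeks. Of the 11 tested, 0 were called at 1 week, 2 were lower at 3 weeks and 3 were lower between the 2 times. These counts rested on single libraries, going to 8 and 9 without three-week replicate 1, to 1 and 0 without three-week replicate 2, to 0 and 1 without naive replicate 1, and between the 2 times to 1 without naive replicate 2 and 0 without either one-week library. Monocyte and macrophage markers summed to 496.5 to 526.4, 414.5 to 449.3 and 398.2 to 586.6 CPM in the same order. Of the 13, 1 was lower at 1 week, and 1 was higher and 3 lower in each of the other comparisons. Eosinophil, basophil and mast cell markers went from 85.5 to 87.0 CPM in naive mice to 115.4 to 134.6 at 1 week and 55.9 to 70.2 at 3 weeks, with 4 of 7 tested higher at 1 week, 4 lower at 3 weeks, and 1 higher and 5 lower between the 2 times. Its one-week count went to 2 with DESeq2, 0 without naive replicate 1, 2 without naive replicate 2 and 1 without either one-week library, and its three-week count to 2 without naive replicate 1 or three-week replicate 2 and 1 without naive replicate 2. T and NK cell markers summed to 15.2 to 16.2, 18.6 to 34.5 and 9.77 to 12.5 CPM, with 1 of 10, Trac, at 0 in every library. Of the 4 tested, 1 was higher at 1 week, 1 was higher and 1 lower at 3 weeks, and 2 were lower between the 2 times. Megakaryocyte and platelet markers summed to 187.8 to 201.5, 159.3 to 183.5 and 131.9 to 148.5 CPM, with 1 of 5 lower at 1 week, 3 lower at 3 weeks and 1 lower between the 2 times. The part of any of these cells in the changes of the 10 genes was not tested.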

How the data were processed

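RNA of Ly6G+ BM cells was sequenced in 6 libraries, and their groups were taken from the sample labels. The authors deposited expected counts per gene, written as whole numbers, without scaling between libraries. The submitters' processing notes name RSEM 1.2.31, Bowtie2, DESeq2 and mm10. The labels give reads of 75 bases and the methods shorter ones, so stretches of 75 bases were used to find shared sequence. Identifiers were matched to GENCODE annotation of GRCm38 for 37570 of 38887.

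Genes were filtered with filterByExpr, counts were scaled by TMM, and all 6 libraries were compared in one model of edgeR 4.0.16 (R 4.3.3), with limma 3.58.1 loaded for it. The fit was tested on simulated data, where it called 53% to 54% of the genes given a 2-fold change. CPM per kb used the summed length of GENCODE exons. The members and lists were chosen with earlier results of these data known. All 10 members are named. From each list, up to 4 genes with the smallest p in each comparison could be named, with the VHL ligase core, the HIF subunits and Hif1an, and for Hif1a the 5 genes most like it, of which 1 is not reported here. Alternatives were DESeq2 1.42.0, a fit of the groups compared only, DESeq2's size factors, library size only, no filter, a filter of 1 CPM in 2 libraries, a block for the replicate number and each library left out. The sum of Bnip3l and its pseudogene was added after seeing the data. Promoter sequence came from RefSeq (GRCm38.p6). Total counts are given in the results, and no interval covers more than counting error or the spread of 2 libraries. Proteins and the other experiments of the study were not analysed here.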

Additional observations from a re-analysis of the deposited data

Results flagged for a closer look

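For 5 of the 10 genes the change from naive mice at 3 weeks differed from that at 1 week, as tested in edgeR by comparing the 2 tumor groups with each other, a test that 22.5% of all tested genes passed. The difference on the log2 scale was 1.06 for Hif1a, 0.65 for Arnt, 1.12 for Egln3, 0.79 for Bnip3 and 1.05 for Ddit4. In Hif1a and Ddit4 the one-week value lay below naive and the three-week value above it, and in the other 3 genes the one-week libraries overlapped the naive ones.

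The same test passed for other named genes. Among these were Bnip3l-ps (0.45), S100a8 (0.51), Eno1 (0.41) and Nos2, which had 0 counts in every one-week library. The differences of 26 more follow. Around HIF and its stability the differences were 0.55 for Ep300, -1.04 for Siah2 and 0.45 for Rack1. Among hypoxia targets they were 1.35 for Fam162a, -0.83 for Ndrg1, -0.87 for Cxcr4, 1.03 for Plin2, 1.97 for Slc2a1, 1.86 for the phosphofructokinase gene Pfkl, 0.78 for its regulator Pfkfb3 and 0.76 for Slc16a3. The VEGF co-receptor Nrp1 differed by -1.60. In mitophagy they were 0.76 for Pink1, 1.00 for Ulk1, 0.92 for Fundc1, 1.19 for Bcl2l1 and 0.83 for Map1lc3a, an LC3 gene of autophagosomes. In mTORC1 control they were 1.13 for Eif4ebp1, 0.65 for Rheb and -0.49 for Mlst8. Among markers they were 1.90 for Mpo, 2.55 for Prtn3, 1.07 for Cxcr2, -1.18 for Camp, -0.74 for Top2a and -2.22 for the B cell gene Cd79a. The named genes were chosen with small p-values in these comparisons, so their number is not evidence of its own.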

How the results depend on the processing

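Of the changes of the 10 genes recomputed under other settings, 331 kept their direction and side of the threshold, 30 lost a call, 13 gained one and 19 changed sign. At 1 week the number of the 10 genes called was 1 with the groups compared only, and 2 each with DESeq2's size factors, without a filter and with a replicate block, Hif1a and Ddit4 being lower. At 3 weeks it was 3 with library size only, as it was between the 2 times. Leaving out single libraries gave 0 to 2, 3 to 5 and 3 to 5 in the 3 comparisons. Over all genes it gave 147 to 1145, 1362 to 2392 and 1502 to 2725, and no filter gave 1537 at 1 week. Library size only moved the median of all genes by -0.15 at 3 weeks and by -0.20 between the 2 times, where it called 890 genes higher and 1675 lower in place of 1471 and 1155, and 856 and 2136 in place of 1586 and 1173. At 1 week it called 575 and 263, and DESeq2 362 and 501, in place of 518 and 461. Of the counts called in the lists, 482 stayed within 1.5 times and 103 did not. At 3 weeks the VHL list of 5 fell to 1 with library size only or without naive replicate 1 and to 3 without naive replicate 2 or either three-week library. The non-glycolytic list of 11 fell to 7 without either naive library. Between the 2 times the mitophagy list of 9 fell to 5 without either one-week library, and the glycolytic list of 14 to 9 without one-week replicate 1. Between the 2 times the VHL list of 2 went to 0 without one-week replicate 1, the mTORC1 list of 3 to 1 without one-week replicate 2, and neutrophil markers from 8 to 4 and 3 without one-week replicates 1 and 2 and to 5 without three-week replicate 1. At 1 week the single calls among neutrophil, precursor, monocyte, T and NK cell, and megakaryocyte markers went to 0 without at least 1 of the libraries. The causes were not tested.

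Values near 0 changed sign. At 1 week, library size only gave 0.02 for Arnt and for Bnip3, and leaving out libraries gave -0.26 to 0.21 for Arnt, -0.0072 to 0.23 for Egln1, -0.25 to 0.08 for Egln3, -0.31 to 0.28 for Bnip3 and -0.08 to 0.11 for Bnip3l, whose sum with its pseudogene gave -0.23. At 3 weeks, library size only gave -0.0084 for Egln1 and -0.03 for Bnip3l. Between the 2 times it gave -0.17 and -0.11, and leaving out libraries gave -0.04 to 0.13 for Egln1, -0.12 to 0.12 for Vhl and -0.03 to 0.17 for Bnip3l.

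Deviations of same-numbered libraries correlated between groups by 0.01 to 0.038 over the tested genes. With 2 libraries per group this cannot decide whether shared replicate numbers mark a pairing. The replicate block left the numbers of the 10 genes called at 6 and 5 in the other 2 comparisons.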
